A study of Mus musculus with 6 samples.

Results

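Srp54a, Srp54b and Srp54c are neighbouring mouse copies of the gene for SRP54, and Fam177a lies between the first and the second of them on chromosome 12. These 4 genes are described here, out of the 701 genes in the table of RNA-seq counts. They were chosen by name, because they lie together and because their counts differed between the genotypes in these same libraries. The difference between the genotypes therefore selected them and is given as a description, with no test.

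SRP54 is the GTP-binding protein subunit of the signal recognition particle. It binds the signal sequence of a secretory or membrane protein as that protein leaves the ribosome, and with the SRP receptor it brings the ribosome to the endoplasmic reticulum, where the protein is passed into the Sec61 channel. Most cells use it, neurons of the retina included, because receptors, channels and secreted proteins enter the membrane system by this route. Fam177a encodes a member of a small protein family.

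The libraries came from the peripheral ventrotemporal (VT) part of the left retina, 24 h after optic nerve crush (ONC), a standard injury of the axons of retinal ganglion cells. The WT group was C57BL/6J and the other group was Slc6a4-/-, a constitutive knockout of the serotonin transporter SERT, and the strain label was C57BL/6 for both. All mice were at postnatal day 56 and had been crushed, so no uninjured retina was compared, and mice of both sexes were used. Each group had 3 samples, each a pool of VT retinae from 3 mice, and an SD below is therefore one between pools. The study lists WT and Slc6a4-/- as separate purchased lines, so that the loss of Slc6a4 and any other difference between the lines cannot be told apart in these samples.

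The label of each pool was checked with Slc6a4 itself, which lies on chromosome 11. It had 1516, 1397 and 1548 reads in WT pools 1 to 3 and 0, 0 and 3 reads in Slc6a4-/- pools 1 to 3. Totals recovered for the libraries ran from 75.6 M to 93.9 M in the unit of the counts. The table holds only genes that had passed the authors' own p-value in these samples, and 6 of 20 retinal and neighbouring cell type markers were in it, so that it could not be used to check the tissue. The 6 include no listed marker of retinal ganglion cells or Mueller glia. Their means differed between the genotypes as well, which the authors' selection requires, but only for Pmel were the groups apart. Taken on its own, Mlana overlapped too, with up to 39.4 scaled counts in WT and down to 29.6 in Slc6a4-/-, which a sum over markers does not show. The summed scaled counts of the pigment cell markers Pmel and Mlana were 159 to 469 in WT and 471 to 704 in Slc6a4-/-, and those of the myeloid markers Aif1 and Lyz2 were 90.7 to 227 and 221 to 326. The cone opsins Opn1sw and Opn1mw together had 8738 to 18873 in WT and 7568 to 9497 in Slc6a4-/-, with a log2 difference of -1.13 for Opn1sw and 0.39 for Opn1mw. None of the 6 passed the test across the table (limma, adjusted p from 0.102 to 0.11), and their part in the results below was not tested. In whole tissue, fewer cells of a type and less RNA per cell cannot be told apart.

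The 4 genes lie on the plus strand of chromosome 12 (GRCm38, GENCODE release M21). Srp54a (ENSMUSG00000073079) spans chr12:55080262-55115367, Fam177a (ENSMUSG00000095595) chr12:55124469-55142104, Srp54b (ENSMUSG00000112449) chr12:55155104-55189573 and Srp54c (ENSMUSG00000079108) chr12:55230168-55263836. The interval from the start of Srp54a to the end of Srp54c is 184 kb long, and 9 annotated genes lie wholly in it. The other 5 are 1700047I17Rik2 and the pseudogenes Gm2436, Gm2446, Gm48340 and Gm48352, and their expression was not analysed here. The genes repeat at an even spacing. Srp54b starts 74842 bases after Srp54a, Srp54c starts 75064 bases after Srp54b, and 1700047I17Rik2 starts 75123 bases after Fam177a. The pseudogenes repeat in the same way, since Gm2446 starts 75067 bases after Gm2436 and Gm48352 starts 75064 bases after Gm48340.

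**Figure D1:**
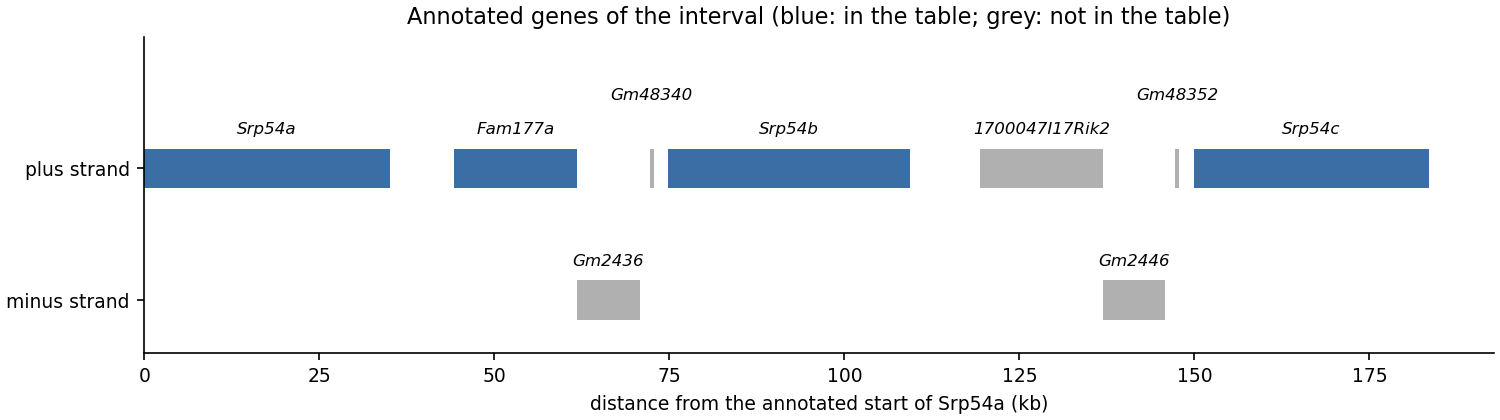
Map of the annotated genes of the interval, with the distance from the start of Srp54a in kb on the x axis and the strand on the y axis. The 4 blue genes are in the table and the 5 grey genes are not, and the Srp54 copies start about every 75 kb.

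The copies are nearly identical as sequence. Each longest transcript has 16 exons and a coding sequence of 1515 bases with the stop codon. Srp54a and Srp54b had 0 differences there. Srp54c differed from both at 6 bases (99.6% identity), and 4 of the 6 changed the encoded amino acid. Counted from the A of the start codon, with the base of Srp54a and Srp54b first and that of Srp54c last, the changes were T501C in exon 8, T945C, G946A and T965G in exon 11, and A1197T and G1249A in exon 14. The stretches around them are shown because they are the only coding sequence by which a read of 75 bases could be told to come from Srp54c, and no coding read could separate Srp54a from Srp54b. Capitals mark the differing bases.

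Coding bases 486 to 560, in exon 8 (chr12:55099913-55099987 in Srp54a, chr12:55174973-55175047 in Srp54b and chr12:55250004-55250078 in Srp54c, all plus strand):
Srp54a and Srp54b: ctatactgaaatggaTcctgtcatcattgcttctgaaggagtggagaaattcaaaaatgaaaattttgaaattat
Srp54c: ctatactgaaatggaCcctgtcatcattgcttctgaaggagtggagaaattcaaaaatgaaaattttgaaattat
Coding bases 899 to 973, in exon 11 (chr12:55102480-55102554 in Srp54a, chr12:55177540-55177614 in Srp54b and chr12:55252784-55252858 in Srp54c):
Srp54a and Srp54b: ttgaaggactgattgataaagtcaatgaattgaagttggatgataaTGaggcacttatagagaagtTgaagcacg
Srp54c: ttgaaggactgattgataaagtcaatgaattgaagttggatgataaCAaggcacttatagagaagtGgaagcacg
Coding bases 1186 to 1260, in exon 14 (chr12:55108531-55108605 in Srp54a, chr12:55183591-55183665 in Srp54b and chr12:55257454-55257528 in Srp54c):
Srp54a and Srp54b: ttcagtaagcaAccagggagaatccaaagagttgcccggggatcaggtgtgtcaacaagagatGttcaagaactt
Srp54c: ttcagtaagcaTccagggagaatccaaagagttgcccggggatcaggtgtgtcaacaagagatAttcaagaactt

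Over the whole annotated transcripts, the sequence that is found in the transcripts of 1 copy only was counted in windows of 75 bases, the length of a read. Of the 4424 windows of the longest Srp54a transcript (4498 bases), 1179 (26.7%) were in no transcript of the other copies. All of these began before the coding sequence (321) or reached past its end (858). The 858 formed 1 run at the end of the transcript, windows 3567 to 4424. Srp54a has 2476 annotated bases after the coding sequence, against 1622 in Srp54b and 1618 in Srp54c. That run lies where the longest annotated transcripts of the other copies have ended, and the sequence beyond those ends was not compared. Srp54b had 33 such windows of 3572 (0.924%), all after the coding sequence, and Srp54c had 297 of 3568 (8.32%), all inside the coding sequence. In each copy, 2919 windows were present in all 3 copies. With longer windows of 300 bases, 30.7% of Srp54a, 7.71% of Srp54b and 27.0% of Srp54c were in that copy only. None of the 75-base windows of the copies was found in a transcript of any other annotated gene.

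Fam177a has the same kind of partner. Its coding sequence of 624 bases was identical to that of 1700047I17Rik2, and 3789 of its 3848 windows of 75 bases also lay in that gene. The 59 windows of its own (1.53%) were at the very start of the transcript, where the annotated transcript of 1700047I17Rik2 begins later. A further overlap with Ppp2r3c and Gm49376, which lie beyond Srp54c, covered 917 windows, 843 of them on the opposite strand. How the authors' counting divided reads that fit several copies is not given in the sources used here, so that each value below is a number of reads counted on a copy.

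**Figure D2:**
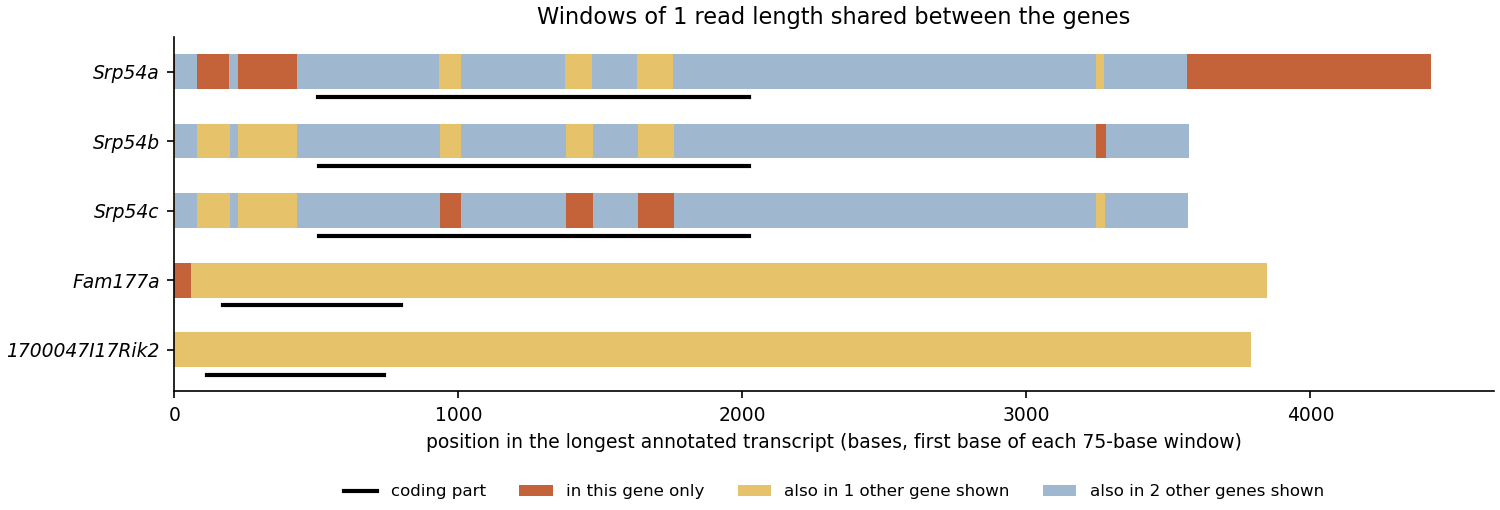
Each bar is the longest annotated transcript of a gene, with the position of the first base of each 75-base window on the x axis. Red windows occur in the annotated transcripts of that gene only (1179 in Srp54a, 33 in Srp54b, 297 in Srp54c, 59 in Fam177a and 0 in 1700047I17Rik2). Yellow and blue windows occur also in 1 or 2 of the other genes shown, and black lines mark the coding sequence.

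Srp54b was close to absent from the Slc6a4-/- pools. It had 1720, 1275 and 1715 reads in WT pools 1 to 3 and 3, 3 and 2 reads in Slc6a4-/- pools 1 to 3. Every WT pool was far above every Slc6a4-/- pool, and the 3 Slc6a4-/- pools were alike. After scaling by library total, where a scaled count is the reads divided by the library's total relative to the geometric mean of the 6 totals, this was 1673 ± 302 in WT and 2.49 ± 0.391 in Slc6a4-/- (mean ± SD, n = 3). The ratio of the pooled reads, 4710 in WT to 8 in Slc6a4-/-, was 667 after scaling, with a 95% exact counting interval from 338 to 1545. Intervals of this kind cover counting error only. The few reads left were too few to say on which windows of Srp54b they lay.

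Srp54a was lower in Slc6a4-/- without being lost, at 48.0% of the WT mean. It had 7430, 6803 and 6527 reads in WT pools 1 to 3, or 8141, 7080 and 6880 scaled counts. In Slc6a4-/- pools 1 to 3 it had 3981, 4178 and 3165 reads, or 3511, 3861 and 3231 scaled counts. The groups did not overlap, and the gap between them was wider than the spread inside either. The means were 7367 ± 678 in WT and 3534 ± 316 in Slc6a4-/- scaled counts (SD, n = 3), a difference of -1.06 on the log2(scaled count + 1) scale.

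Srp54c differed least between the genotypes. It had 7208, 6830 and 5618 reads in WT pools 1 to 3, and 7031, 6838 and 5169 reads in Slc6a4-/- pools 1 to 3. In scaled counts these were 7897, 7108 and 5922 in WT and 6200, 6320 and 5277 in Slc6a4-/-. The groups overlapped, since WT pool 3 lay below Slc6a4-/- pools 1 and 2, and in both genotypes pool 3 was the lowest. The mean was 6976 ± 994 in WT and 5932 ± 571 in Slc6a4-/- (85.0% of WT), a log2 difference of -0.23. This small difference was -0.13 without WT pool 1, -0.15 without Slc6a4-/- pool 3 and -0.05 without scaling.

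Fam177a was split within the Slc6a4-/- group. It had 869, 1081 and 836 reads in WT pools 1 to 3, and 0, 0 and 447 reads in Slc6a4-/- pools 1 to 3. In scaled counts, WT pools had 952, 1125 and 881, and Slc6a4-/- pool 3 had 456, which was 46.3% of the WT mean of 986 ± 125 (SD, n = 3). All Slc6a4-/- pools were below all WT pools, but pool 3 lay closer to WT than to the other pools of its own genotype on the log2 scale. A count of 0 sets no exact bound. With 3 reads taken as a working limit in each library, the WT mean of Fam177a was 373-fold above that limit in Slc6a4-/- pool 1 and 356-fold in pool 2. The upper end of the 95% Poisson interval for 0 reads is higher, at 3.69, and would make both folds smaller. The spread of the WT pools is not part of these folds. In pool 3, Srp54b had 2 reads against 3 in each of the other Slc6a4-/- pools, and Slc6a4 had 3 reads against 0, far below the 1397 or more of the WT pools. Fam177a was the only gene of the 701 with 0 reads in a library and 100 or more in another library of the same genotype. Since most of its sequence also lies in 1700047I17Rik2, these counts do not show which of the pair the reads of any pool came from. Nor do the counts of 0 in Slc6a4-/- pools 1 and 2 show that reads of the pair were absent there, because 1700047I17Rik2 was not analysed.

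**Figure D3:**
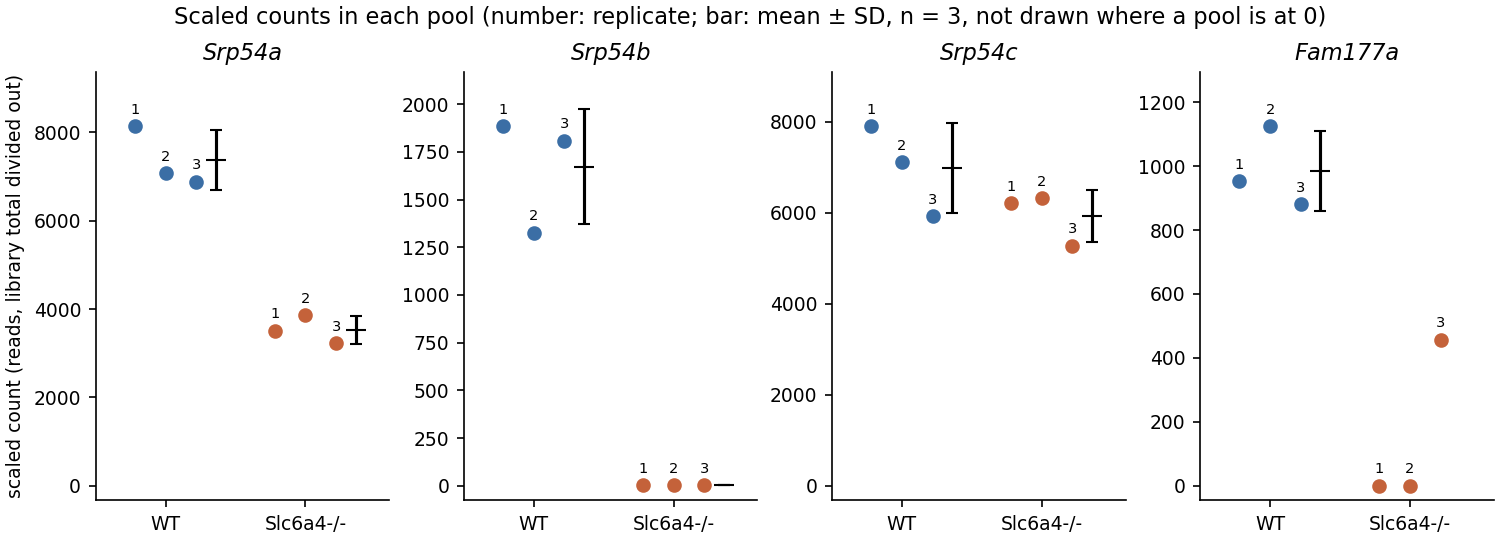
Scaled counts of each gene in each pool (blue WT, red Slc6a4-/-, numbered by replicate) on linear axes that differ between genes, with black bars for the mean ± SD where no pool is at 0. Srp54b is near 0 in all 3 Slc6a4-/- pools, Srp54a is lower without overlap, Srp54c overlaps, and Fam177a is at 0 in Slc6a4-/- pools 1 and 2 and at 456 in pool 3.

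Of the 4 genes, Srp54a, Srp54b and Fam177a were lower in Slc6a4-/- with no overlap between the groups. Among all 701 genes this held for 170 (24.3%), and 304 (43.4%) had a lower mean in Slc6a4-/-. The median log2 difference over the table was 0.30, and over the table without the 4 genes and Slc6a4 it ran from -3.31 to 3.87. Srp54b (-8.90) and Fam177a (-6.99) lay outside that range, and Srp54a and Srp54c inside it. The value of Fam177a depends on Slc6a4-/- pool 3 (-9.94 without it) and on the number added before taking logs, and it is not a bound. Only Slc6a4 and Srp54b had 3 reads or fewer in every Slc6a4-/- library and 100 or more in every WT library, and 0 genes had the reverse.

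**Figure D4:**
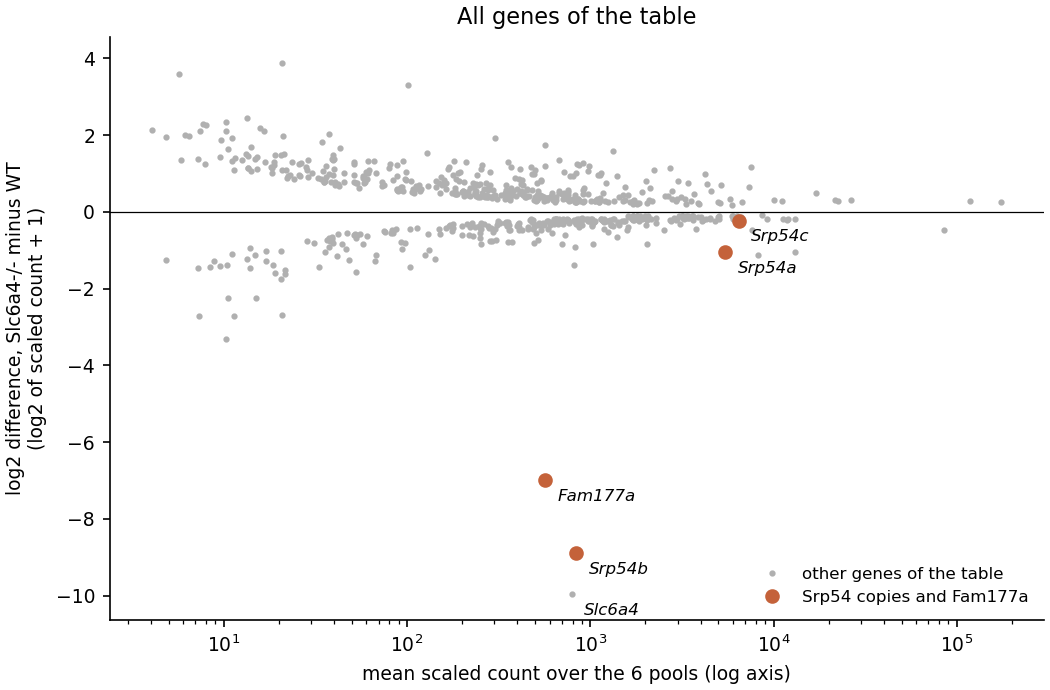
Every gene of the table by its mean scaled count over the 6 pools (x, log axis) and its log2 difference, Slc6a4-/- minus WT (y). Srp54b at -8.90 and Fam177a at -6.99 stand with Slc6a4 at -9.95, below the other genes, while Srp54a at -1.06 and Srp54c at -0.23 lie among them.

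The level of each gene per length could be compared inside a genotype. In WT, Srp54c had 23.1 ± 3.30 RPKM (reads divided by the exon length and the library total) and Srp54a 16.7 ± 1.54, followed by Srp54b with 4.48 ± 0.809 and Fam177a with 3.04 ± 0.386 (SD, n = 3). The ranges of Srp54c, from 19.6 to 26.2, and of Srp54a, from 15.6 to 18.5, did not overlap with these exon lengths. Those of Srp54b, from 3.55 to 5.04, and of Fam177a, from 2.71 to 3.46, did not overlap either, although the gap is small. In Slc6a4-/- the order began with Srp54c at 19.7 ± 1.89 and Srp54a at 8.02 ± 0.716, and Fam177a in pool 3 was at 1.41. These values use the exon lengths of GENCODE M21. For the authors' WT mean RPKM, the deposited value was 23.13 for Srp54c and 3.04 for Fam177a, equal to the values here within 0.2%, whereas it was 18.96 for Srp54a and 5.26 for Srp54b. For the same reads this corresponds to shorter exons of these copies in the authors' annotation, and their RPKM here is uncertain by that much. With the exon length that the authors' value implies, the WT range of Srp54a was 17.71 to 20.95, which overlaps that of Srp54c, so the order of these copies depends on the annotation. That of Srp54b was then 4.17 to 5.92 and stayed above Fam177a.

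A sum over the 3 copies does not depend on how shared reads were divided among them, provided that the counting used each such read once, which the sources used here do not state. The copies together had 16358, 14908 and 13860 reads in WT pools 1 to 3, and 11015, 11019 and 8336 in Slc6a4-/- pools 1 to 3. Every WT pool was above every Slc6a4-/- pool, with or without scaling. In scaled counts the sum was 16015 ± 1712 in WT and 9469 ± 863 in Slc6a4-/- (SD, n = 3), which is 59.1% of WT and a log2 difference of -0.76. Srp54a made up 58.5% of this difference of 6546 scaled counts, Srp54b 25.5% and Srp54c 15.9%. The difference of Srp54b alone was thus smaller than that of the sum, and Srp54a and Srp54c together went from 14342 ± 1624 to 9467 ± 863 scaled counts. Reads from the Srp54a and Srp54b genes cannot be told apart in the coding sequence, and how much of the difference of Srp54a came from reads of Srp54b was not tested.

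The shares of the copies in the Srp54 reads need no scaling between libraries. Srp54a took 45.4%, 45.6% and 47.1% of them in WT pools 1 to 3 and 36.1%, 37.9% and 38.0% in Slc6a4-/- pools 1 to 3. Srp54b took 10.5%, 8.55% and 12.4% in WT and 0.0272%, 0.0272% and 0.0240% in Slc6a4-/-. Srp54c took 44.1%, 45.8% and 40.5% in WT and 63.8%, 62.1% and 62.0% in Slc6a4-/-. Srp54a and Srp54b had the smaller shares in Slc6a4-/- and Srp54c the larger one, and for none of the copies did the groups overlap. Shares add up to the whole, so the larger share of Srp54c follows from the smaller ones of the other copies. In scaled counts Srp54c was at 85.0% of the WT mean in Slc6a4-/-, with overlapping groups. Srp54a had 1.03, 0.996 and 1.16 reads for each read of Srp54c in WT, and 0.566, 0.611 and 0.612 in Slc6a4-/-. These ratios are not corrected for exon length, so about equal reads in WT do not show equal levels of the copies.

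**Figure D5:**
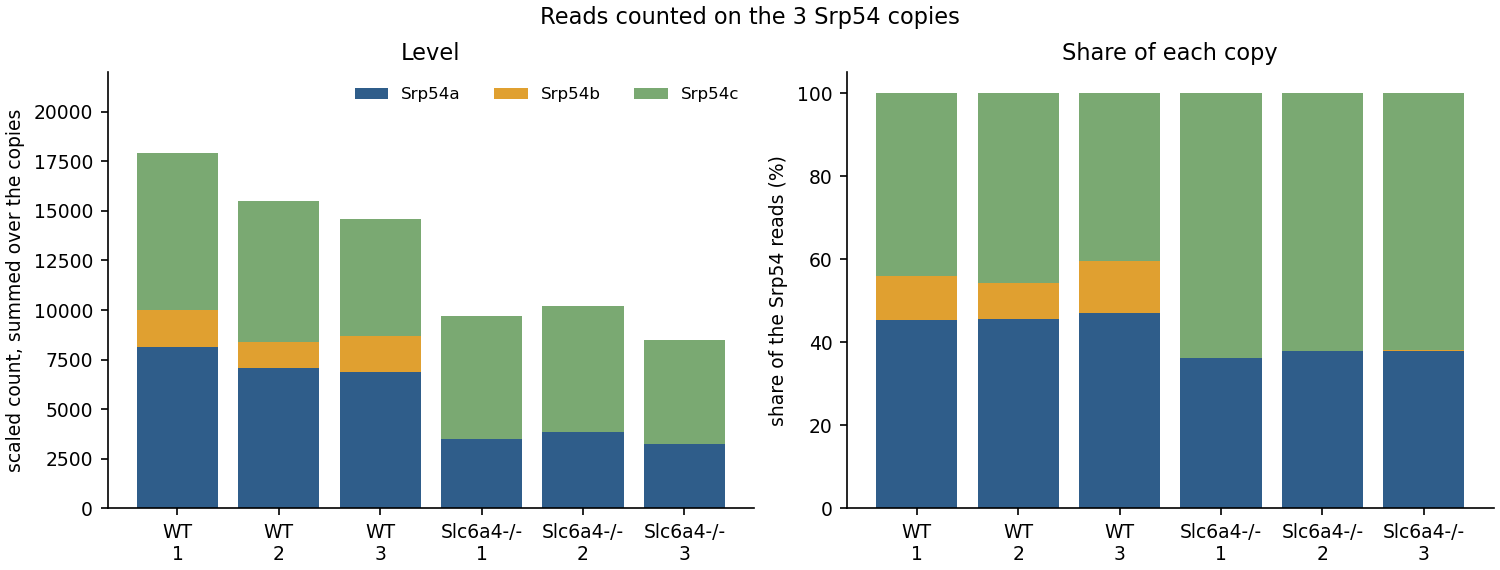
Scaled counts summed over the 3 copies (left, bars from 0) and the share of the Srp54 reads on each copy in percent (right), for each of the 6 pools. The sums are 14609 or more in WT and 10184 or less in Slc6a4-/-, Srp54b is not visible in Slc6a4-/-, and Srp54c holds 62.0% to 63.8% there.

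The genes were alike across the pools to different degrees. Over the 6 pools, on log2(scaled count + 1), Pearson's r was 0.985 between Srp54a and Srp54b, 0.735 between Srp54a and Srp54c and 0.622 between Srp54b and Srp54c. With Fam177a, r was 0.675 for Srp54a, 0.749 for Srp54b and 0.192 for Srp54c. The points fall into the genotypes and share library and depth, and r is a description. Per 1000 Srp54 reads, Fam177a had 53.1, 72.5 and 60.3 reads in WT and 0, 0 and 53.6 in Slc6a4-/-. On that measure Slc6a4-/- pool 3 was inside the WT range, and its Srp54 reads were the lowest of the 6.

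The genes whose pattern was most like that of Srp54b, by r over the 6 pools, were Slc6a4 (0.988), Cyp4f14, a cytochrome P450 (0.986), Mylk, the myosin light chain kinase (0.966), Magi1, a scaffold protein of cell junctions (0.961), and Pcdha8, a protocadherin (0.956). Their sizes were unlike: Mylk had scaled counts from 4351 to 4571 in WT and from 3654 to 3889 in Slc6a4-/-. None but Slc6a4 came near 0. Pcdha8 shares exons with the other genes of its cluster, so its count is uncertain.

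The genes most like Fam177a were Pcsk1n, which encodes the neuropeptide precursor proSAAS (0.990), H4c2 (0.987) and H4c12 (0.980), which are histone H4 genes with near-identical copies and so uncertain counts, Zbtb7a, a transcription factor (0.981), and Ahnak2, a large scaffold protein (0.980). In each of them Slc6a4-/- pool 3 lay nearer to the WT pools than pools 1 and 2 did, which a high r with Fam177a requires. Pcsk1n had 429, 450 and 428 scaled counts in WT and 183, 192 and 461 in Slc6a4-/- pools 1 to 3. Ahnak2, also on chromosome 12, had 1596, 1391 and 1387 in WT and 872, 872 and 1377 in Slc6a4-/-. A high pool 3 was frequent among the 304 genes with a lower mean in Slc6a4-/-. It was the highest Slc6a4-/- pool in 160 of them (52.6%), against 33 for pool 1 and 110 for pool 2. It alone reached the WT range in 62 (20.4%), against 7 for pool 1 and 43 for pool 2. Fam177a in pool 3 did not reach that range, and the part of this pool's other differences in the Fam177a value was not tested.

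Of the other genes of the signal recognition pathway, a list of 33 held, among others, the remaining SRP proteins, the SRP receptor, the Sec61 channel, the signal peptidase and the oligosaccharyl transferase. Only Srp14, which encodes a subunit of the Alu domain of the particle, was in the table, and the other 32 were not analysed here. Srp14 had 974, 962 and 913 reads in WT and 1214, 1601 and 1100 in Slc6a4-/-. In scaled counts the groups were apart by little, with 1067 as the highest WT pool and 1071 as the lowest Slc6a4-/- pool. The log2 difference was 0.26 (standard error 0.14), near the median of 0.30 over the table and opposite in sign to the Srp54 sum. It did not pass the test (limma, adjusted p = 0.131 over the 701 genes). It was 0.12 without Slc6a4-/- pool 2 and 0.44 without scaling. In that test 8 genes (1.14%) passed both an adjusted p of 0.05 and a 1.5-fold difference. Of these, 3 (0.428%) were lower in Slc6a4-/- and 5 higher. The 3 lower ones were Slc6a4 itself and some of the selected genes, so their share holds no other gene and is no background for the selected genes. The Srp54 copies and Fam177a entered this fit with the rest of the table, but it is no test of them, since the same contrast selected them. The 5 that were higher, Prss56, Gabra2, Gm3435, Cdcp3 and Gsta1, are named after their values were seen. The count rested on single libraries, with 158 genes without WT pool 1, 17 without Slc6a4-/- pool 3, and 5 without WT pool 2 or Slc6a4-/- pool 2. Slc6a4 passed, at a log2 difference of -9.95 (limma, adjusted p = 0.000205).

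The table held 25 genes of chromosome 12, and the 21 other than the Srp54 copies and Fam177a, Ahnak2 among them, had 14 higher and 7 lower means in Slc6a4-/-. Within 5 Mb of the interval there were 2 of them, and both had higher means. Slc25a21, a mitochondrial carrier 1.45 Mb away, had few reads, with 19, 7 and 7 in WT and 23, 30 and 29 in Slc6a4-/-. Its groups overlapped after scaling, and the log2 difference of 1.21 (standard error 0.47) did not pass (limma, adjusted p = 0.106). Clec14a, an endothelial C-type lectin 3.00 Mb away, had 146, 103 and 79 reads in WT and 215, 240 and 192 in Slc6a4-/-, with no overlap. Its log2 difference of 0.84 (standard error 0.26) did not pass either (limma, adjusted p = 0.102). Both passed without WT pool 1, at an adjusted p of 0.0401 in limma, with log2 differences of 1.67 and 1.09. The nearest gene of the table that was lower, Lrfn5, lay 6.26 Mb away, at a log2 difference of -0.19.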

How the data were processed

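Total RNA of the 6 pools was depleted of ribosomal RNA, and the study's authors sequenced it in pairs of 75-base reads from a stranded kit. Alignment to GRCm38 and counting per gene were done in the CLC Genomics Workbench. Their deposited table holds raw counts, written with commas as digit marks, for 701 genes that had at least a minimum of reads and passed an unadjusted p-value in their own comparison. The authors' deposited table also gives a mean RPKM, that of the genotype with the higher mean. Its other columns hold the authors' fold changes and p-values, which were not used. Blank lines (25) were skipped, and of the columns with per-sample values 0 were not used.

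Because the table is a selection, library totals were recovered by a robust linear fit of the authors' mean RPKM on the counts and the GENCODE M21 exon lengths. Genes entered at an RPKM of 2 or more and 100 or more reads in every library of the genotype. In WT, 97 of 167 genes were kept (within 5%), with a median absolute residual of 0.0574%, against 1.85% over all 167. In Slc6a4-/-, 71 of 168 were kept, at 0.0651% against 9.40%. The plan had set 1% as the limit of this residual without saying over which genes, so scaling by the median of ratios, over the 464 genes with 100 reads in every library, is given as an alternative. Whether a pair counts as 1 or 2 in these totals was not settled.

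All 701 identifiers had a position in M21. Reads were divided by the library's factor, and all 701 genes were fitted on log2(scaled count + 1) with limma 3.58.1 (lmFit, eBayes with trend, R 4.3.3). The counts are whole numbers, but limma on log values was planned because their commas might keep them from being read as such for a count model. Benjamini-Hochberg adjustment was over the whole table. Test values are given only for genes outside the 4 described. Since the table is a selection on the same samples, these p-values describe its genes only, and their adjustment does not give the usual control of false calls. They set each difference between the groups against the spread between pools. The fits were tested on simulated data. Sequences are from the GENCODE M21 transcripts, compared by exact match of windows of 75, 150 and 300 bases. The 4 genes and the lists were chosen with earlier results of these data known. The genes named besides them were Slc6a4, table genes within 5 Mb, table genes of the list of 33, and the 5 highest Pearson r with Srp54b and with Fam177a. Alternatives were other scalings, added numbers of 0.5 and 5, a filter at a mean of 50 scaled counts, no trend, a replicate block and leaving out each pool.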

Additional observations from a re-analysis of the deposited data

How the results depend on the processing

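The 3 Srp54 copies, their sum and Fam177a kept their direction under every alternative run. The log2 difference of the Srp54 sum was -0.58 without scaling, which shifts the median of all genes from 0.30 to 0.47, and it ran from -0.82 to -0.67 when each pool was left out. The Srp54a share of the sum, a difference of -8.71 percentage points, ran from -9.02 to -8.11 over the same omissions. For Fam177a, the log2 difference of -6.99 ran from -9.94 to -5.52: -9.94 without Slc6a4-/- pool 3, and -5.52 without Slc6a4-/- pool 1 or pool 2. For Srp54c, -0.23 became -0.05 without scaling and ran from -0.34 (without WT pool 3) to -0.13 (without WT pool 1). For Srp54b it was -7.79 with 5 added before taking logs. The number of genes past both thresholds was 8 (5 higher, 3 lower). It was 114 without scaling (106 higher, 8 lower) and 41 without the trend (28 higher, 13 lower). Leaving out a pool gave 5 to 158, with 158 without WT pool 1, 17 without Slc6a4-/- pool 3, and 5 without WT pool 2 or Slc6a4-/- pool 2. The cause was not tested. The replicate block gave 14. Same-numbered pools correlated at 0.252, -0.160 and 0.080 in their deviations from the group means. With 3 pools in a group, these values cannot settle whether the numbers pair the pools. The block left the differences of the Srp54 sum and Fam177a as they were, since each is a mean over all 3 pools. Of 143 values for the named genes outside the 4, 136 kept direction and call, 6 came past the thresholds, and Magi1 turned from -0.16 to 0.022 without scaling. The few reads of Srp54b in Slc6a4-/- limit any statement on its remaining level.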
